A study of Mus musculus with 9 samples.

Results

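The matrix metalloproteinases and their tissue inhibitors were examined as a set of 10 genes in mouse colon: 8 metalloproteinases (Mmp2, Mmp3, Mmp7, Mmp8, Mmp9, Mmp10, Mmp12 and Mmp13) and 2 inhibitors (Timp1 and Timp3). The members were taken by symbol from a deposited table of 36256 genes, and all 10 were present and had enough reads to enter the test, which covered 21767 genes. Colon RNA came from 9 C57BL/6 mice, 3 in each of 3 groups. In the LRWE group, mice were given DSS (dextran sulfate sodium), which damages the lining of the colon, and a Linderae Radix extract at 2.0 g/kg. Linderae Radix is the dried root of the shrub Lindera aggregata. MC mice received DSS without the extract, and in both of these groups the modelling lasted 9 days. NC mice were the controls. Each library came from a different mouse, and the labels give neither the age of the mice nor the segment of colon.

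Matrix metalloproteinases are zinc-dependent proteases, most of them secreted as inactive precursors, that cut collagens, laminins, elastin and other proteins between cells. The TIMPs bind the active enzymes and block them. In the injured gut, fibroblasts and macrophages make the stromelysins and collagenase-3, neutrophils carry the neutrophil collagenase and gelatinase B, and resting stroma makes gelatinase A and Timp3. In cell culture, the stromelysin, collagenase-3 and Timp1 genes are textbook targets of inflammatory cytokines acting through the transcription factor AP-1.

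The promoters of Mmp3, Mmp10 and Mmp13 are shown because the transcripts of these genes were highest in the same libraries. That of Mmp7 is shown because the same AP-1 and TATA letters lie in it, and that of Timp1 because it lacks both. Each sequence is the RefSeq window of 250 bases before the transcript start in GRCm38.p6, on the plus strand, and capitals mark the letters TGANTCA (AP-1), AGGAAG on either strand (ETS factors, CTTCCT on the other) and TATAAA on either strand (TATA box). The windows lie at chr9:7445572-7445821 (Mmp3), chr9:7502092-7502341 (Mmp10), chr9:7272264-7272513 (Mmp13), chr9:7691840-7692089 (Mmp7, the first of its listed starts) and chrX:20869916-20870165 (Timp1).
Mmp3: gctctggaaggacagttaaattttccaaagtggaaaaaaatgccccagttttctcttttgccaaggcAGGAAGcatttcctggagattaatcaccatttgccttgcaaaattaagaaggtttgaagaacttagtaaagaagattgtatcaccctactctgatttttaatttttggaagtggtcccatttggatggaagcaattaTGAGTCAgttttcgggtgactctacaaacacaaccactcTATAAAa
Mmp10: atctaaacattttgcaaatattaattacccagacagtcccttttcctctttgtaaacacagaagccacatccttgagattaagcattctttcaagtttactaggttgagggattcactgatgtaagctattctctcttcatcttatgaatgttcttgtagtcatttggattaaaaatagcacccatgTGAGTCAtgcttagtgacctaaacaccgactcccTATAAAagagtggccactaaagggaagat
Mmp13: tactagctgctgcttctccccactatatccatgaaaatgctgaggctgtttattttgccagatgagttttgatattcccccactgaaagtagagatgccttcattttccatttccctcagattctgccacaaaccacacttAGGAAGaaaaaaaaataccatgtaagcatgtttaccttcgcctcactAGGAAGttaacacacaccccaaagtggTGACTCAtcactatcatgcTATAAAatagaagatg
Mmp7: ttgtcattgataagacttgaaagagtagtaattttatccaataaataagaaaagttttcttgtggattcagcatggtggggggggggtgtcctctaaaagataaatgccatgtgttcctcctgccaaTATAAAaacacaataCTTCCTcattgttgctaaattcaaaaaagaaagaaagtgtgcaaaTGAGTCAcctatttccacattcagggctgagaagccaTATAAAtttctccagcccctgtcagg
Timp1: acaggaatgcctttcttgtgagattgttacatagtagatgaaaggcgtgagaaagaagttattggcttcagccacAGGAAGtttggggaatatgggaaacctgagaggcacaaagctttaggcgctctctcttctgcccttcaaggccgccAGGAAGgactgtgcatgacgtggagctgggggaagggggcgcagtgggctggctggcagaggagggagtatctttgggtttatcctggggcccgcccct

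Of the 10 members, 8 had a window in the table, with 10 windows in all. The AP-1 letters stood in 5 of these 10 windows, against 6.75% of 32851 promoter windows of the same length. TATAAA stood in 4 of the 10, against 12.4% of all windows. Both stood together in the windows of Mmp3, Mmp10, Mmp13 and the first start of Mmp7, against 1.21% of all windows. In the window of Mmp10 the AP-1 letters lay at bases -63 to -57 from the start, the same place as in the first window of Mmp7, and in that of Mmp13 they lay at -35 to -29. TATAAA lay at -7 to -2 in Mmp3, -29 to -24 in Mmp10, -16 to -11 in Mmp13, and -123 to -118 and -26 to -21 in Mmp7. All positions are counted from the listed RefSeq start and would shift with another start. The ETS letters stood in the windows of Mmp3, Mmp7, Mmp8, Mmp12, Mmp13, Timp1 and Timp3, a motif found in 29.5% of all windows. The letters TTCNNNGAA of STAT factors, searched on both strands, stood in none of the 10 windows, against 7.02% of all. No match overlapped another. The motifs were chosen after the sequences had been read, so these counts describe the windows and test nothing, and a match is no evidence of binding.

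**Figure D1:**
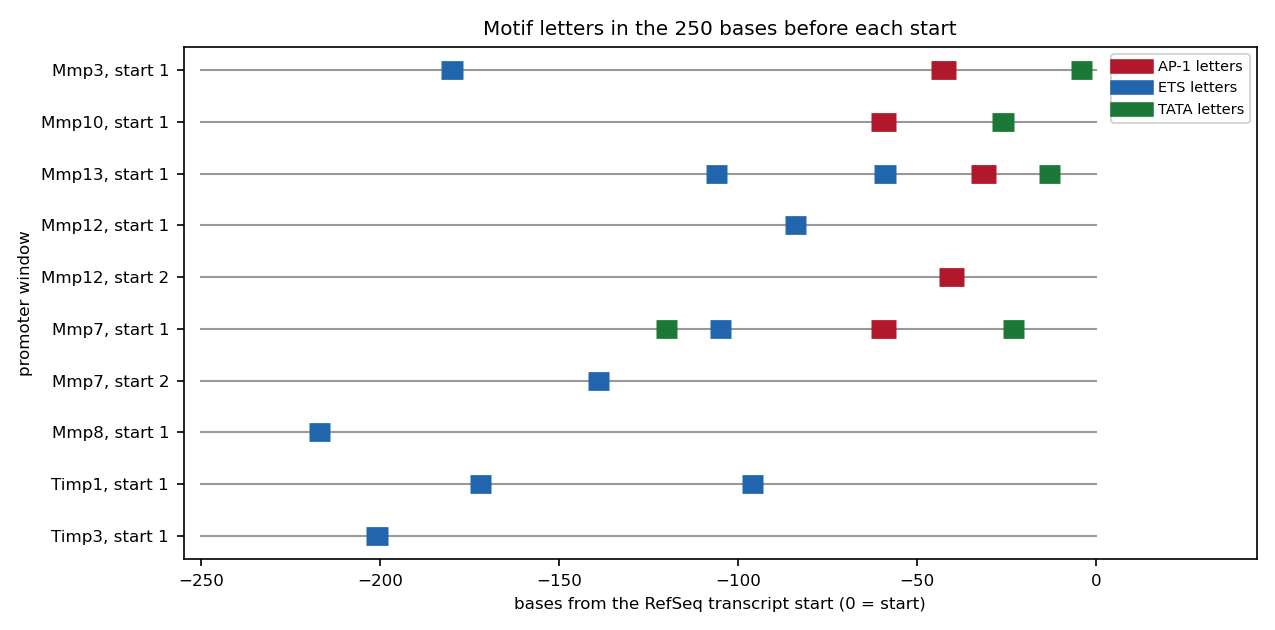
Position of the AP-1 (red), ETS (blue) and TATA (green) letters in the 10 promoter windows of 8 members, in bases from the RefSeq transcript start. AP-1 and TATA letters stand together in the windows of Mmp3, Mmp10, Mmp13 and the first start of Mmp7, and in none of the windows of Timp1 or Timp3.

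The libraries held between 59042063 and 65042857 counts. LRWE 2 stood apart: 21218 genes had a count in it, against 23238 to 26019 in the other libraries. By a fit that weights libraries by their spread, its weight was 0.247, the lowest of the 9, followed by MC 2 at 0.385 and LRWE 1 at 0.494. Summed epithelial markers, which include Muc2, Krt20, Car1 and Slc26a3, ranged from 15293 to 32636 CPM (counts scaled to library size after TMM factors) in LRWE libraries, from 6598 to 14788 CPM in MC libraries and from 9117 to 12117 CPM in NC libraries, with the highest sum in LRWE 2. Car1 led the sum in LRWE, with means of 9767 CPM in LRWE, 3379 CPM in MC and 648 CPM in NC. Slc26a3 went the other way, with means of 273 CPM in LRWE, 248 CPM in MC and 2178 CPM in NC. Smooth muscle markers, such as Myh11 and Tagln, summed to between 2750 and 7285 CPM in LRWE libraries, against 7262 to 12751 CPM in MC libraries and 9167 to 13468 CPM in NC libraries. All 11 epithelial, 8 smooth muscle and 14 fibroblast markers had counts in every group. In bulk tissue, fewer cells of a type and less RNA per cell cannot be told apart, and this holds for every value below.

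Per length, Timp3 was the most abundant member in each group. Its FPKM (fragments scaled to transcript length and library size) averaged 8.40 ± 5.90 in LRWE, 21.4 ± 4.96 in MC and 17.4 ± 0.640 in NC (SD, n = 3 each). In NC colon Mmp2 came next with 6.99 ± 1.81 FPKM, then Timp1 with 1.07 ± 0.298 FPKM and Mmp13 with 0.543 ± 0.255 FPKM (SD, n = 3 each), and these 4 did not overlap each other. Mmp3, Mmp10, Mmp9 and Mmp12 followed with means of 0.365, 0.246, 0.168 and 0.120 FPKM, and from Mmp13 to Mmp12 each gene overlapped the next. Mmp7 and Mmp8 were lowest, with means of 0.0336 and 0.0315 FPKM and overlapping ranges. In MC colon the order by mean FPKM was Timp3, Timp1, Mmp3, Mmp2, Mmp13, Mmp10, Mmp9, Mmp7, Mmp12 and Mmp8, and in LRWE colon it was Timp3, Mmp13, Mmp2, Mmp10, Mmp3, Timp1, Mmp7, Mmp9, Mmp8 and Mmp12. Every pair of neighbours in these last orders overlapped in range. The spread among mice was wide in the DSS-treated groups: the highest MC library had 41.4 times the Mmp3 FPKM of the lowest, and the highest LRWE library 100.4 times that of the lowest, against 3.66 times in NC.

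Mmp3, stromelysin-1, cuts a broad range of matrix proteins and activates other metalloproteinase precursors. It had 11.9, 2.18 and 0.130 CPM in the 3 LRWE libraries, 1.27, 46.5 and 7.74 CPM in the 3 MC libraries, and 1.18, 0.292 and 0.746 CPM in the 3 NC libraries. MC 2 was by far the highest, MC 1 was only just above NC 1, and the LRWE libraries spanned the NC range. Mmp10, stromelysin-2, is its close relative. It had 12.7, 0.702 and 0.747 CPM in LRWE, 1.18, 11.5 and 6.61 CPM in MC, and 0.731, 0.169 and 0.524 CPM in NC. LRWE 1, MC 2 and MC 3 were high, and the other LRWE libraries lay among or just above the NC values.

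Mmp13, collagenase-3, opens the triple helix of fibrillar collagens. Its CPM was 37.4, 4.49 and 1.12 in LRWE, 2.37, 27.0 and 8.75 in MC, and 0.783, 1.89 and 2.06 in NC. The libraries high in Mmp10 were again the highest, and LRWE 3 lay inside the NC range. Mmp8, the neutrophil collagenase, was near the limit of detection, with 0, 38 and 0 counts in LRWE, 0, 22 and 8 counts in MC, and 0, 0 and 16 counts in NC. In 5 of 9 libraries it had no read.

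**Figure D2:**
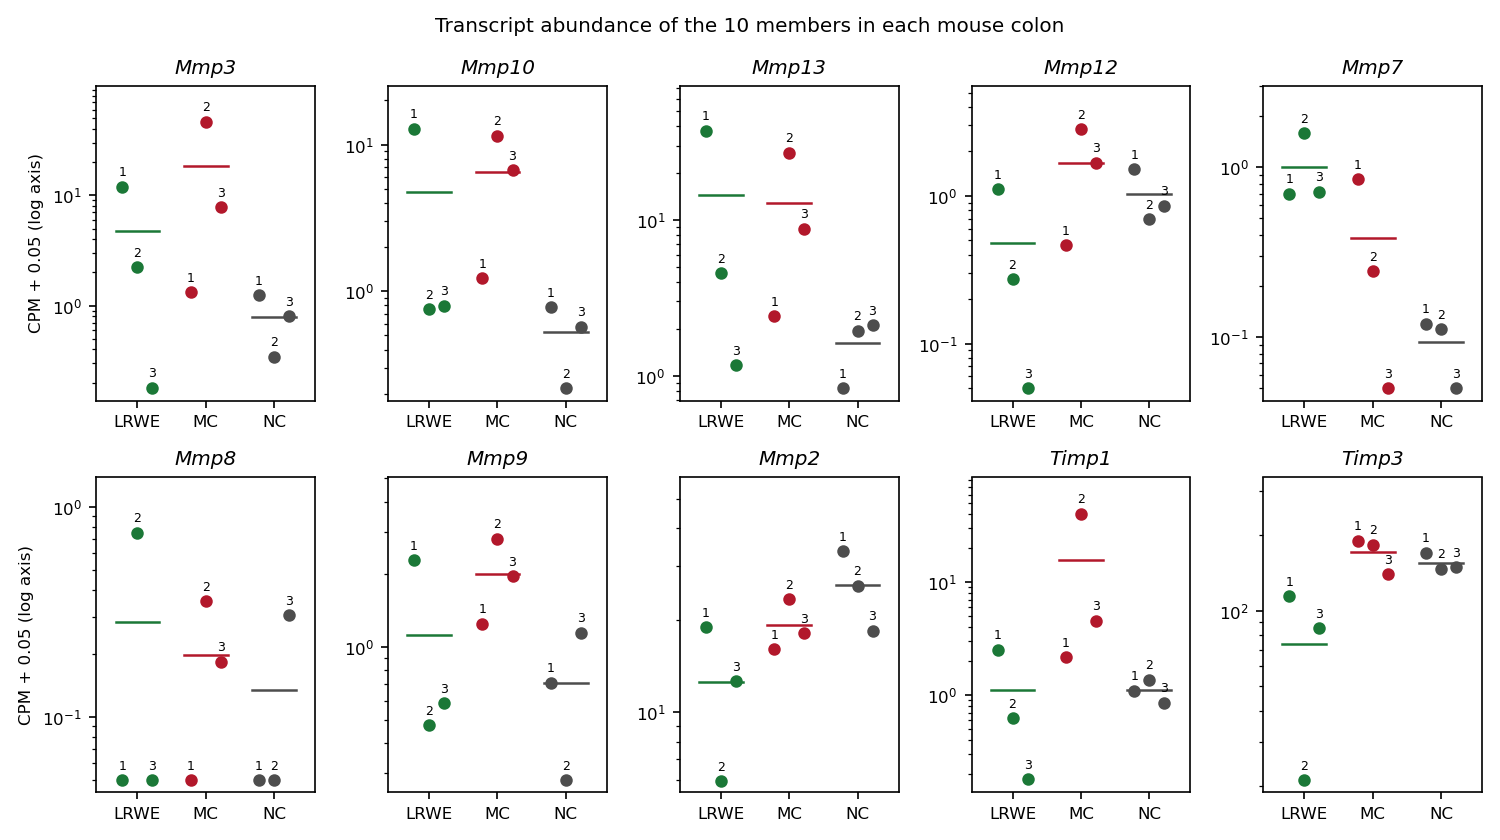
CPM of each member in each library, on a log axis after adding 0.05. Each point is 1 mouse, numbered by replicate, and each line is the group mean of 3 mice. LRWE 1, MC 2 and MC 3 hold the highest values of Mmp10 and Mmp13, MC 2 the highest values of Mmp3 and Timp1, and the 3 LRWE libraries the lowest of Timp3.

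Mmp12, the macrophage metalloelastase, cuts elastin. It had 1.06, 0.222 and 0 CPM in LRWE, 0.415, 2.78 and 1.63 CPM in MC, and 1.46, 0.646 and 0.809 CPM in NC, and the groups overlapped. Mmp7, matrilysin, is made by epithelial cells and in the mouse small intestine activates the alpha-defensins of Paneth cells. It had 0.651, 1.53 and 0.666 CPM in LRWE, 0.799, 0.195 and 0 CPM in MC, and 0.0696, 0.0615 and 0 CPM in NC. Its level was low throughout, with 40, 83 and 41 counts in LRWE and 4, 4 and 0 counts in NC, but every LRWE library lay above every NC library. The Paneth cell list summed to between 2.25 and 4.32 CPM in LRWE, 2.80 and 5.46 CPM in MC and 4.89 and 20.3 CPM in NC. Its most abundant gene was Ang4 in LRWE, with a mean of 2.12 CPM, and Lyz1 in MC and NC, with means of 1.65 and 6.74 CPM.

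The gelatinases cut denatured collagen and the type IV collagen of basement membranes. Mmp2, gelatinase A, is a product of stromal cells. It had 18.9, 5.89 and 12.5 CPM in LRWE, 16.0, 23.4 and 18.1 CPM in MC, and 33.6, 25.9 and 18.4 CPM in NC. Its lowest value was in LRWE 2, and LRWE 1 reached into the NC range. Mmp9, gelatinase B, is stored in neutrophil granules and also made by macrophages and epithelium. It had 2.24, 0.425 and 0.536 CPM in LRWE, 1.198, 2.76 and 1.91 CPM in MC, and 0.661, 0.231 and 1.09 CPM in NC, so that the MC libraries lay above the NC libraries.

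Of the inhibitors, Timp1 is the one induced by inflammatory signals. It had 2.47, 0.573 and 0.130 CPM in LRWE, 2.12, 40.4 and 4.53 CPM in MC, and 1.04, 1.32 and 0.809 CPM in NC. MC 2 alone held most of the MC level, with 2906 of the counts against 138 and 273 in MC 1 and MC 3, and every MC library was above every NC library. Timp3 is held in the matrix and also blocks ADAM proteases. It had 114.0, 21.0 and 85.3 CPM in LRWE, 190.5, 183.7 and 139.6 CPM in MC, and 170.3, 147.0 and 148.9 CPM in NC. All 3 LRWE libraries lay below all 6 others, with LRWE 2 lowest.

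DSS without the extract was compared with no DSS. Mmp3, Mmp10, Mmp13 and Timp1 had the largest differences among the members, and none of the 10 passed the test: edgeR's quasi-likelihood test with Benjamini-Hochberg adjustment called 0 of 10 members at an adjusted p under 0.05, where 2.84% of all genes tested were called higher and 3.53% lower in MC. Mmp3 averaged 18.5 ± 24.4 CPM in MC and 0.741 ± 0.446 CPM in NC, a log2 fold change of 4.64 with a 95% interval of 0.94 to 8.35 (adjusted p = 0.124). Timp1 averaged 15.7 ± 21.5 CPM in MC and 1.06 ± 0.257 CPM in NC, a log2 fold change of 3.89 with an interval of 1.003 to 6.77 (adjusted p = 0.103). Mmp10 differed by 3.76 (0.78 to 6.74, adjusted p = 0.122) and Mmp13 by 3.01 (0.16 to 5.85, adjusted p = 0.183) on the log2 scale. These 4 were the members with an unadjusted p under 0.05, all higher in MC, where 24.3% of all genes reached that level in either direction.

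The other members gave log2 fold changes of 2.87 for Mmp7, 1.56 for Mmp9, 0.78 for Mmp8, 0.73 for Mmp12, 0.14 for Timp3 and -0.44 for Mmp2, with adjusted p between 0.278 and 0.893. For Timp3 the interval was -0.93 to 1.21 and for Mmp2 it was -1.33 to 0.45, the narrowest of the set. The groups did not overlap for 5 of 10 members (Mmp3, Mmp9, Mmp10, Mmp13 and Timp1), all higher in MC, where 19.5% of all genes were higher and 20.1% lower in MC without overlap. The median log2 fold change of the members was 2.22, against -0.01 over all genes.

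This comparison turned on MC 2 and on the tool. Without MC 2, the log2 fold change was 2.62 for Mmp3, 3.05 for Mmp10, 1.82 for Mmp13 and 1.66 for Timp1, and no member was called. DESeq2 called 4 members, all higher in MC: Mmp3 (adjusted p = 0.0160), Mmp10 (0.00634), Mmp13 (0.0291) and Timp1 (0.00295). A fit of MC and NC alone called Mmp3 (adjusted p = 0.0476) and Mmp10 (0.0303), and the fit without LRWE 1 called Mmp10 (0.0372). DESeq2 and the fit of MC and NC alone also called more of all genes than the main fit did. The totals are given in the last section, and these member calls are not read as particular to the set.

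**Figure D3:**
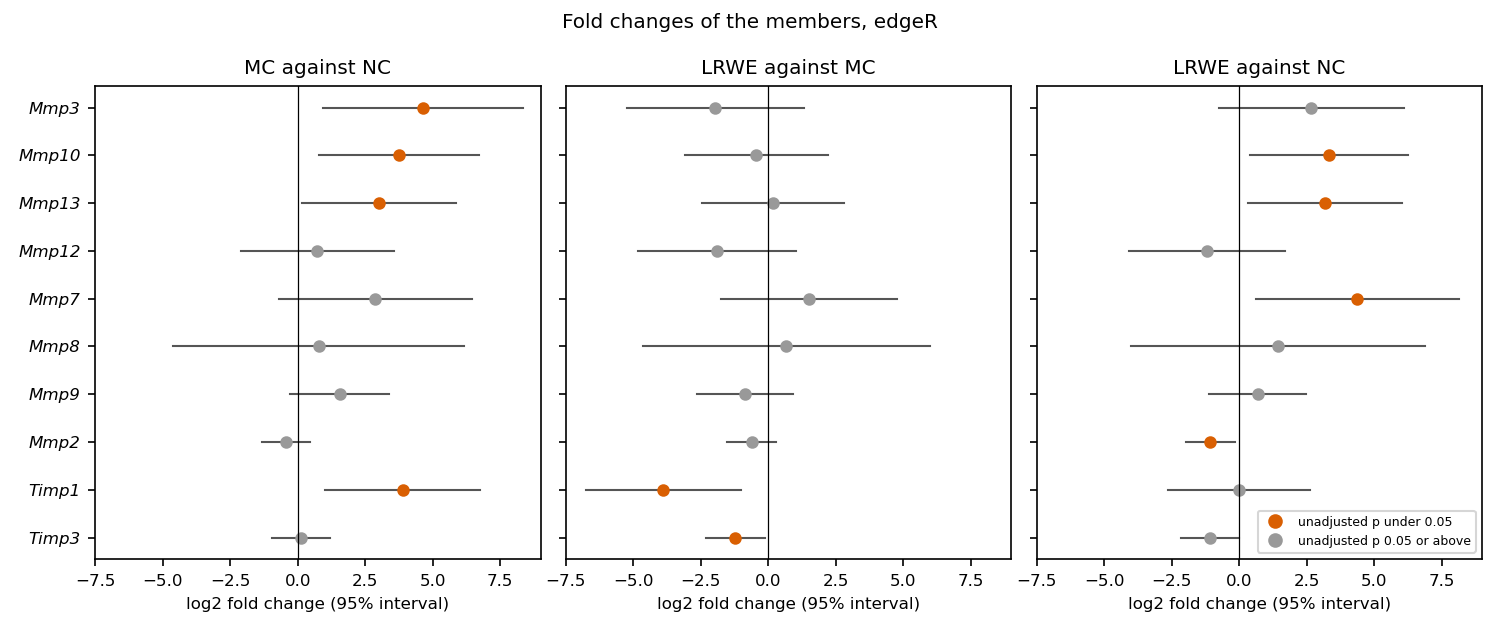
Log2 fold change of each member by edgeR in MC against NC, LRWE against MC and LRWE against NC, with 95% intervals, from 3 mice per group. Orange points have an unadjusted p under 0.05, and no point has an adjusted p under 0.05. The intervals of the low-count member Mmp8 span more than 10 log2 units, and those of Mmp2 are the narrowest.

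The extract was tested in DSS-treated mice by setting LRWE against MC. Both inhibitors were lower on average in LRWE, and the proteases were split: Mmp3 and Mmp12 were lower on average in LRWE while the means of Mmp10 and Mmp13 lay close together. By edgeR, 0 of 10 members and 0% of all genes were called, the smallest adjusted p over all genes being 0.164. An unadjusted p under 0.05 was reached by 2 members, both lower in LRWE, against 23.6% of all genes in either direction. Timp1 averaged 1.06 ± 1.24 CPM in LRWE and 15.7 ± 21.5 CPM in MC, a log2 fold change of -3.89 with an interval of -6.77 to -1.001 (adjusted p = 0.165). Timp3 averaged 73.5 ± 47.6 CPM in LRWE and 171.3 ± 27.6 CPM in MC, a log2 fold change of -1.22 with an interval of -2.31 to -0.13 (adjusted p = 0.185).

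Timp3 was also the member whose groups did not overlap, lower in LRWE, where 14.3% of all genes were higher and 14.1% lower in LRWE without overlap. Mmp3 gave a log2 fold change of -1.96 (-5.23 to 1.31), Mmp12 one of -1.91 (-4.84 to 1.02), Mmp9 one of -0.87 (-2.66 to 0.92) and Mmp2 one of -0.62 (-1.51 to 0.27). Mmp10 averaged 4.73 ± 6.94 CPM in LRWE and 6.42 ± 5.15 CPM in MC, a log2 fold change of -0.44 (-3.08 to 2.20). Mmp13 averaged 14.3 ± 20.0 CPM in LRWE and 12.7 ± 12.8 CPM in MC, a log2 fold change of 0.17 (-2.44 to 2.79). Both are intervals that allow a severalfold difference either way. Mmp7 gave 1.51 (-1.76 to 4.78) and Mmp8 gave 0.66 (-4.66 to 5.98). The median over the members was -0.75, against -0.03 over all genes.

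Single libraries set these values too. Without LRWE 1, Mmp3 was at -4.01, Mmp10 at -3.15 and Mmp13 at -2.19 on the log2 scale, and over all genes 2436 were called. Without MC 2, Mmp3 was at 0.07, Mmp10 at 0.28, Mmp13 at 1.36 and Timp1 at -1.65. Without LRWE 2, Timp3 was at -0.78, Mmp8 at -6.23 with LRWE then at 0 counts, and Mmp10 at 0.07, and no member was called in any of these fits. DESeq2 called Timp1 (adjusted p = 0.0134, lower in LRWE), and limma-voom with sample quality weights called Timp3 (0.0446, lower in LRWE), a fit added after the libraries of a group were seen to differ. Both fits called many of all genes in this comparison, where the main fit called none, with the totals given in the last section. These member calls are not read as particular to the set.

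LRWE against NC shares its libraries with both comparisons above, and it sets mice with DSS and extract against controls. Mmp7, Mmp10 and Mmp13 were higher on average in LRWE, Mmp2 and Timp3 were lower, and Timp1 averaged 1.06 CPM in both groups. Again edgeR called 0 of 10 members, where 6.04% of all genes were called higher and 3.97% lower in LRWE. Mmp7 averaged 0.950 ± 0.505 CPM in LRWE and 0.0437 ± 0.0381 CPM in NC, a log2 fold change of 4.38 with an interval of 0.62 to 8.15 (adjusted p = 0.130). Mmp10 differed by 3.32 (0.39 to 6.24, adjusted p = 0.139), Mmp13 by 3.18 (0.32 to 6.04, adjusted p = 0.146) and Mmp3 by 2.68 (-0.74 to 6.10, adjusted p = 0.299) on the log2 scale.

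Mmp2 averaged 12.4 ± 6.51 CPM in LRWE and 25.9 ± 7.58 CPM in NC, a log2 fold change of -1.06 with an interval of -1.96 to -0.16 (adjusted p = 0.126). Timp3 averaged 73.5 ± 47.6 CPM in LRWE and 155.4 ± 12.96 CPM in NC, a log2 fold change of -1.08 with an interval of -2.17 to 0.00 (adjusted p = 0.187). Timp1 gave 0.00 with an interval of -2.62 to 2.62, Mmp9 gave 0.69 (-1.11 to 2.49), Mmp12 gave -1.18 (-4.06 to 1.70) and Mmp8 gave 1.44 (-4.00 to 6.87). An unadjusted p under 0.05 was reached by 3 members higher and 1 lower in LRWE, against 26.9% of all genes. The groups did not overlap for Mmp7, higher in LRWE, and Timp3, lower in LRWE. Among all genes, 16.6% were higher and 20.5% lower in LRWE without overlap.

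The 3 proteases Mmp3, Mmp10 and Mmp13 owed their LRWE means to LRWE 1: without it their log2 fold changes against NC were 0.63, 0.61 and 0.82. Without LRWE 1, Mmp9 was at -0.46, Timp1 at -1.60 and Mmp2 at -1.50, and Mmp2 was then called (adjusted p = 0.0448). The share of all genes called in that fit is not given here, so this call is not read as particular to the set. Without LRWE 2, Mmp7 was at 3.86, Mmp2 at -0.72, Timp3 at -0.64 and Mmp8 at -5.46, with LRWE then at 0 Mmp8 counts, and no member was called. DESeq2 called 3 members, all higher in LRWE: Mmp7 (adjusted p = 0.0200), Mmp10 (0.0185) and Mmp13 (0.0195). The quality-weighted limma-voom fit called 3 others, all lower in LRWE: Mmp2 (0.0164), Mmp12 (0.0466) and Timp3 (0.0228). Both fits also called more of all genes than the main fit did, with the totals given in the last section. Their member calls are not read as particular to the set.

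The make-up of the set was then described per length. In NC, Mmp2 made up 84.6, 86.8 and 73.2% of the summed FPKM of the 8 proteases. It made up 16.0, 25.3 and 68.8% in LRWE and 58.3, 13.6 and 30.5% in MC. Mmp3, Mmp10 and Mmp13 together made up 80.1, 47.7 and 17.0% in LRWE, 27.9, 83.5 and 64.9% in MC, and 11.6, 10.9 and 19.8% in NC. Every MC library thus had a larger share of these 3 proteases than any NC library, and LRWE 3 lay within the NC range.

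Summed protease FPKM divided by summed FPKM of Timp1 and Timp3 was 2.08, 2.14 and 0.510 in LRWE, 0.316, 0.748 and 0.789 in MC, and 0.533, 0.453 and 0.389 in NC. LRWE 1 and LRWE 2 stood above all other libraries, the first with a protease sum of 34.3 FPKM and the second with an inhibitor sum of 2.56 FPKM, the lowest of all. Timp1 made up 16.5, 19.9 and 1.21% of the inhibitor sum in LRWE, 9.20, 66.9 and 23.0% in MC, and 5.20, 7.54 and 4.63% in NC. Every MC library had a larger Timp1 share than any NC library, and the MC group ranged widest. These are ratios of transcripts of the 10 members and no measure of enzyme activity. They leave out the inhibitor Timp2, which was above Timp3 in every library. Timp2 had 35.8, 5.91 and 21.1 FPKM in LRWE, 50.8, 61.9 and 38.5 FPKM in MC, and 25.4, 28.6 and 27.6 FPKM in NC. The protease Mmp14 is also left out. It had 8.21, 4.69 and 4.97 FPKM in LRWE, 6.40, 18.3 and 8.59 FPKM in MC, and 6.70, 5.96 and 6.30 FPKM in NC. The ratios thus do not give the balance of all proteases and inhibitors.

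**Figure D4:**
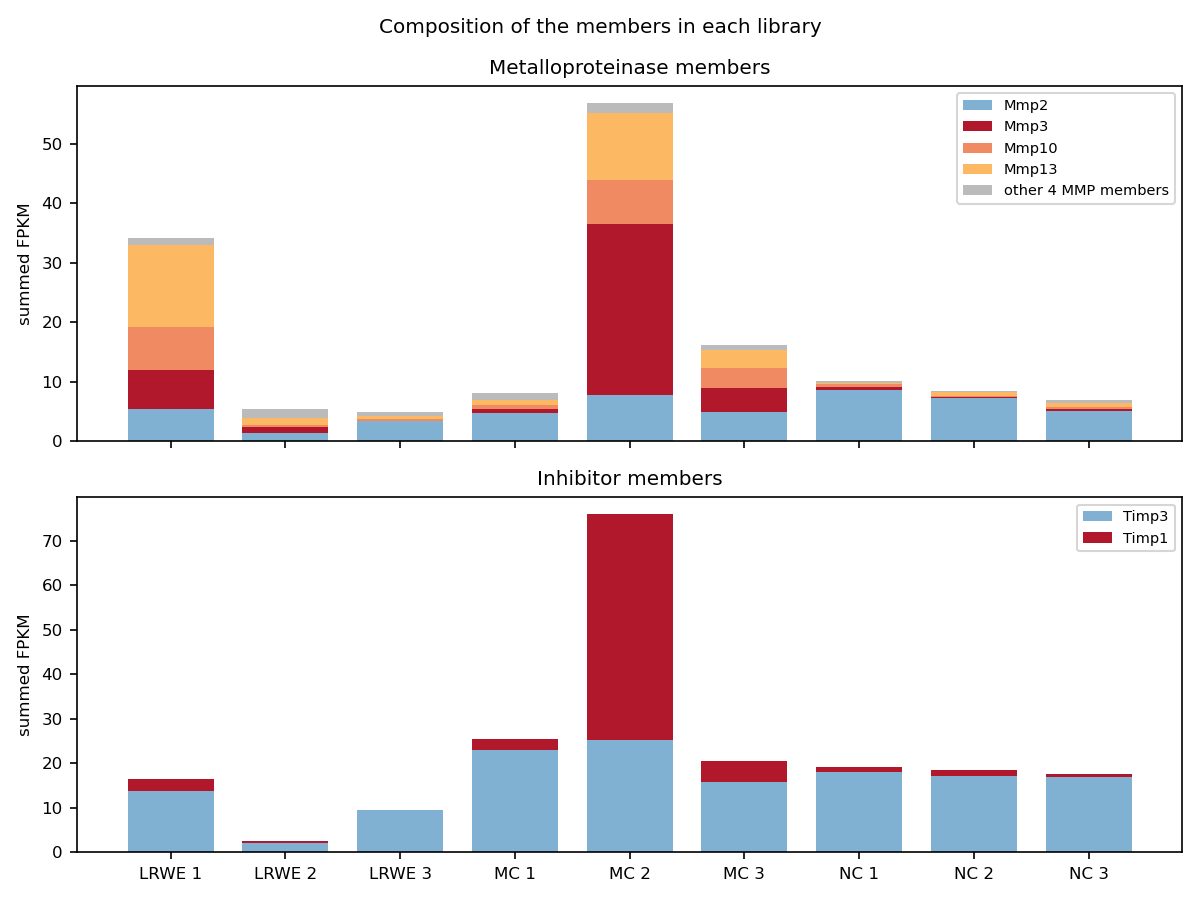
Summed FPKM of the 8 protease members (top) and the 2 inhibitor members (bottom) in each library. NC bars are mostly Mmp2 and Timp3. MC 2 reaches 56.9 FPKM of proteases and 76.0 FPKM of inhibitors, with Mmp3 and Timp1 as the largest parts, and LRWE 1 reaches 34.3 FPKM of proteases with Mmp13 as the largest part.

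In the deposited coordinates, whose genome build the sources used here do not give, 6 members lie on the plus strand of chromosome 9 within 427073 bases: Mmp13 (7272514-7283331), Mmp12 (7344381-7369499), Mmp3 (7445822-7455975), Mmp10 (7502353-7510241), Mmp8 (7558457-7568486) and Mmp7 (7692091-7699586). The remaining 3 genes listed in that span, Mmp27, Mmp20 and AV064505, had 7, 4 and 10 counts over the 9 libraries and were not tested. Mmp12, which lies between Mmp13 and Mmp3, had a log2 fold change of 0.73 in MC against NC where its neighbours had 3.01 and 4.64. The 95% interval of Mmp12, -2.10 to 3.56, overlapped those of both neighbours, and a difference between these genes was not tested. The other members lie apart. Mmp2 is on chromosome 8 (93553919-93580048) and Mmp9 on chromosome 2 (164782700-164797770). Timp3 is on chromosome 10 (86136236-86185370) and Timp1 on chromosome X (20736405-20740974). The GRCm38.p6 promoter windows of Timp1 (20869916-20870165) and Timp3 (86300162-86300411) lie past the ends of these deposited genes. The deposited coordinates and those of the windows thus cannot be read on the same scale.

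Some reads may be shared with other genes. Of the 50-base words in Mmp7 transcripts, 7.36% occur in AV064505, a gene on the opposite strand that overlaps Mmp7 and had at most 10 counts in a library, where Mmp7 had 4, 4 and 0 counts in NC. Of the 50-base words in Mmp3 transcripts, 8.39% also occur in Mmp10 or Gm15244, and of those in Mmp10, 8.37% occur in Mmp3, so a small part of either value could come from the other. Of the words in Timp3 transcripts, 21.1% occur as reverse complements in transcripts of 304 other genes, wherever in the genome these lie. Timp1 lies across from Syn1, a neuronal gene on the opposite strand, and the sources used here do not say whether the counting used strand. Syn1 had 45.7, 5.84 and 23.8 CPM in LRWE, 64.2, 76.7 and 58.7 CPM in MC, and 15.9, 16.3 and 17.8 CPM in NC. All MC libraries lay above all NC libraries for Syn1 as for Timp1, and as for 19.5% of all genes. Within MC, Syn1 ran from 58.7 to 76.7 CPM and Timp1 from 2.12 to 40.4 CPM. Timp1 transcripts share no 50-base word with transcripts of other genes on either strand, and how far reads of one gene were counted for the other was not tested. Timp3 lies across from Syn3, which had 0.369 to 6.68 CPM.

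The members were compared by the root mean square distance of their log2 CPM, each centred on its NC mean, over the 9 libraries. This distance takes in the size of the changes, so genes that vary little can lie close. Libraries without reads, as for Mmp8, all take the same low value. The distances are thus no ranking of shared pattern alone. The closest pairs were Mmp2 with Timp3 at 0.47, Mmp10 with Mmp13 at 1.05, Mmp3 with Mmp10 at 1.16 and Mmp3 with Mmp13 at 1.197. By the same measure over 13984 genes, the nearest to Mmp3 were Steap4 (1.22), Il1b (1.26) and Spp1 (1.302), and the nearest to Mmp10 were Steap4 (0.81), Duoxa2 (1.05) and Fer1l4 (1.07). Mmp13 was nearest to Spp1 (0.62), Hp (0.78) and Steap4 (0.86). For Timp1 they were Serpina3n (0.58), Lcn2 (0.82) and Ube2ql1 (0.87). Mmp2 was nearest to Rcl1 (0.16), Acvrl1 (0.18) and Pdgfd (0.21), and Timp3 to Tns1 (0.13), Cdh5 (0.17) and Ilk (0.17). The nearest genes to Mmp9 were Rtbdn (0.33), Fxyd7 (0.39) and Slc17a6 (0.44), and to Mmp12 they were Dok5 (0.58), Csf3r (0.59) and Spon2 (0.61). Mmp7 was nearest to Hpse2 (0.98), Smim38 (1.05) and Phospho1 (1.07), and Mmp8 to Klhl1 (1.18), Spn (1.205) and Trib3 (1.22). Serpina3n, which encodes an acute-phase protease inhibitor, had 64.4, 6.71 and 5.85 CPM in LRWE, 24.0, 676.5 and 96.4 CPM in MC, and 17.2, 16.0 and 21.2 CPM in NC, and like Timp1 it was highest in MC 2.

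Genes that act with the members were read from lists. Over all genes tested, 2.84% were called higher and 3.53% lower in MC against NC. In LRWE against NC, 6.04% were called higher and 3.97% lower. The counts of called genes in each list below are to be read beside these shares. Of 18 other metalloproteinase and TIMP genes, 13 were tested. None passed in MC against NC or LRWE against MC, and 2 fell in LRWE against NC. They were Mmp23 (-1.74 ± 0.41 on the log2 scale, SE, adjusted p = 0.0326), with means of 3.36 CPM in LRWE and 11.2 CPM in NC, and Timp4 (-1.66 ± 0.44, SE, adjusted p = 0.0478), with means of 1.12 CPM in LRWE and 3.53 CPM in NC. The median log2 fold change of these 13 was 0.71 in MC against NC, -1.14 in LRWE against MC and -0.41 in LRWE against NC, the same with Mmp25, at 0 counts in LRWE, at its bound. Mmp23 lost its call without LRWE 3 or any single NC library, and Timp4 kept its call in 1 of the 9 fits with a library left out, the fit without LRWE 2.

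Plasmin activates several metalloproteinase precursors. Of 10 genes of plasminogen activation, 8 were tested, and 2 rose in MC against NC. Plaur, the urokinase receptor, had 39.1, 21.1 and 5.69 CPM in LRWE, 16.0, 29.2 and 41.1 CPM in MC, and 3.36, 3.11 and 4.49 CPM in NC. All MC and all LRWE libraries lay above all NC libraries. Its log2 fold change was 2.98 ± 0.64 in MC against NC (SE, adjusted p = 0.0291) and 2.59 ± 0.63 in LRWE against NC (SE, adjusted p = 0.0351). Serpine2, an inhibitor of plasminogen activators, averaged 69.0 CPM in MC and 19.2 CPM in NC, a log2 fold change of 1.85 ± 0.44 (SE, adjusted p = 0.0422). The medians over the 8 genes were 0.04, -0.07 and 0.34 in MC against NC, LRWE against MC and LRWE against NC. The Plaur call in MC was lost without MC 2, MC 3 or any single NC library, that in LRWE without LRWE 1, LRWE 2 or any single NC library, and the Serpine2 call in 7 of 9 such fits, all but those without LRWE 1 or LRWE 2. The LRWE value of Plaur also moved: it was 1.86 without LRWE 1 (adjusted p = 0.0645), 1.22 by quality-weighted limma-voom (adjusted p = 0.201), and 1.63 and 2.10 by limma on log2(FPKM + 1) and log2(FPKM + 0.1) (adjusted p = 0.0793 and 0.0569).

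Of 14 cytokines that act upstream of these genes, 9 were tested and none passed in any comparison. All 9 had a positive log2 fold change in MC against NC, with a median of 2.01, and the medians were -0.77 in LRWE against MC and 1.28 in LRWE against NC. These medians were the same with Il6, at 0 counts in NC, set to the bound that 3 counts over the group allow. Il1b, the second nearest gene to Mmp3, had 8.77, 1.81 and 0 CPM in LRWE, 1.58, 8.67 and 7.74 CPM in MC, and 0.522, 0.646 and 0.809 CPM in NC. The same libraries were high as for Mmp10 and Mmp13. The most abundant of the list, Tgfb1 and Tgfb2, gave adjusted p of 0.877 and 0.165 in MC against NC, 0.164 and 0.194 in LRWE against MC, and 0.0702 and 0.968 in LRWE against NC.

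Of 13 AP-1 and ETS factors, all were tested, and in LRWE against NC 1 rose and 1 fell. Jund, an AP-1 subunit, averaged 785.5 CPM in LRWE and 363.5 CPM in NC (1.11 ± 0.26, SE, adjusted p = 0.0305). Etv4, an ETS factor, averaged 0.685 CPM in LRWE and 10.4 CPM in NC (-3.92 ± 0.75, SE, adjusted p = 0.0156). The list's medians were 0.04 in MC against NC, -0.22 in LRWE against MC and -0.06 in LRWE against NC. The Jund call was lost without LRWE 2, LRWE 3 or any single NC library, and the Etv4 call without LRWE 3 or any single NC library.

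Of 18 matrix proteins that the enzymes cut, all tested, none passed in MC against NC or LRWE against MC, and 2 fell in LRWE against NC. Col3a1, a fibrillar collagen, averaged 145.2 CPM in LRWE and 526.4 CPM in NC (-1.86 ± 0.43, SE, adjusted p = 0.0310). Eln, elastin, averaged 20.0 CPM in LRWE and 66.0 CPM in NC (-1.72 ± 0.42, SE, adjusted p = 0.0362). The medians over the list were 0.22, -1.48 and -1.16 in MC against NC, LRWE against MC and LRWE against NC. Both calls were lost without LRWE 2, LRWE 3 or any single NC library, and that of Eln also without MC 1. None of 16 ADAM and ADAMTS proteases passed in any comparison, and their medians were 0.19, -1.07 and -0.60. Adam10 and Adam15, the most abundant, gave adjusted p of 0.816 and 0.824 in MC against NC, 0.190 and 0.467 in LRWE against MC, and 0.0943 and 0.314 in LRWE against NC.

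Markers of the cells that make the members moved with some of these values, and their part in the results was not tested. Fibroblast markers summed to between 306.1 and 969.5 CPM in LRWE, 955.7 and 3491 CPM in MC, and 1548 and 2236 CPM in NC, with MC 2 highest and LRWE 2 lowest, as for Timp1 and Mmp3 at the high end and for Mmp2 and Timp3 at the low end. Grem1 had the highest mean of the fibroblast list in MC, 413.2 CPM, against 52.4 CPM in NC. The 14 markers had a median log2 fold change of -0.28 in MC against NC, with 6 positive. In MC 2, Postn, Dpt and Pi16 lay below every NC library. The high sum of MC 2 thus did not stand for the whole list. By this sum, libraries other than MC 2 and LRWE 2 did not match the members. LRWE 1 had the highest Mmp10 and Mmp13 but a fibroblast sum of 969.5 CPM, below every NC library. MC 3, at 1299 CPM, was also below every NC library, while its Mmp3, Mmp10 and Mmp13 were above every NC library. Of these 14 genes, Pi16 fell in MC against NC (-3.44 on the log2 scale). Pi16 (-5.86), Col3a1 (-1.86), Dpt (-1.27) and Postn (-1.42) fell in LRWE against NC. Macrophage and monocyte markers summed to between 96.8 and 205.1 CPM in LRWE, 134.9 and 310.1 CPM in MC, and 312.1 and 422.6 CPM in NC. Of these 14, Ly6c2, a monocyte surface protein, had 0.895, 1.37 and 0.439 CPM in LRWE, 0.845, 1.24 and 0.764 CPM in MC, and 3.74, 6.03 and 5.92 CPM in NC. It fell in MC against NC (-2.46 on the log2 scale) and in LRWE against NC (-2.54), as did Mrc1 (-1.29), C1qc (-1.57) and Lyz2 (-1.88) in LRWE against NC.

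Neutrophil markers summed to between 16.5 and 76.7 CPM in LRWE, 21.6 and 268.1 CPM in MC, and 144.0 and 228.1 CPM in NC, a sum led by Ly6g with means of 29.8, 101.9 and 194.1 CPM in LRWE, MC and NC. Ltf, the lactoferrin of neutrophil granules, is the next most abundant, and its values ran the other way: 5.08, 2.33 and 1.17 CPM in LRWE, 2.66, 10.6 and 1.83 CPM in MC, and 0.592, 0.523 and 0 CPM in NC. The adjusted p of Ltf was 0.108 in MC against NC and 0.160 in LRWE against NC, and those of Ly6g were 0.567 and 0.0940. None of the 10 tested neutrophil markers passed in any comparison, with medians of 2.63 in MC against NC, -1.41 in LRWE against MC and 1.76 in LRWE against NC, the same with Retnlg, at 0 counts in NC, at its bound. In MC against NC, 9 of these 10 had a positive log2 fold change, all but Ly6g (-0.93). In LRWE against MC 0 were positive, and in LRWE against NC 6 were. The sum thus followed Ly6g and not most of the list. Mpo, the myeloperoxidase of neutrophil granules, was at 0 counts in all LRWE and all MC libraries and had 0, 0 and 8 counts in NC, and it was not tested. S100a9, an abundant neutrophil protein, had 5.01, 1.46 and 0.195 CPM in LRWE, 0.399, 7.84 and 5.48 CPM in MC, and 0, 0 and 0.0952 CPM in NC. LRWE 1, MC 2 and MC 3 were the highest for S100a9, as for Mmp10, Mmp13 and Il1b.

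Of 11 epithelial markers, Muc2 (1.31 on the log2 scale) and Cdx2 (2.496) rose in MC against NC and Slc26a3 (-3.13) fell. In LRWE against NC, Muc2 (2.22), Cdx2 (3.74), Krt20 (1.43) and Car1 (3.91) rose and Slc26a3 (-2.995) fell. Of 8 smooth muscle markers, Tagln fell in LRWE against NC (-1.45). Of 4 tested Paneth cell markers, Lyz1 fell in LRWE against NC (-3.29). Ang4, of the same list, averaged 2.12 CPM in LRWE, 1.06 CPM in MC and 1.65 CPM in NC, with adjusted p of 0.677 in MC against NC, 0.453 in LRWE against MC and 0.812 in LRWE against NC. None of 4 tested squamous markers passed, and their sums ranged from 3.40 to 9.04 CPM in LRWE, 2.43 to 3.72 CPM in MC and 2.43 to 2.52 CPM in NC. Of these, Dsg3 had 2.51, 2.36 and 2.55 CPM in LRWE, 1.06, 0.376 and 1.76 CPM in MC, and 0.226, 0 and 0.238 CPM in NC, and its adjusted p was 0.147 in MC against NC and 0.0531 in LRWE against NC. Krt15 averaged 1.34, 0.890 and 0.673 CPM in LRWE, MC and NC. In LRWE against MC no marker of any list passed, as no gene did.

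The marker calls of Slc26a3 in both comparisons, and of Pi16, Muc2 and Cdx2 in LRWE against NC, held in all 9 fits with a library left out, and the other marker calls were lost in at least 2. Of all 28 calls of genes named from the lists, 21 were lost without NC 1, 23 without NC 2 and 22 without NC 3, mostly with little change in the log2 fold change: over the 252 fits with a library left out, 248 values stayed within 1.5-fold of the full fit. That of Ly6c2 in MC against NC stayed between -2.69 and -2.33. The 4 that moved further were Plaur in LRWE against NC without LRWE 1, Pi16 in MC against NC without MC 2 (-4.20), Car1 in LRWE against NC without NC 1 (4.51) and Lyz1 in LRWE against NC without NC 3 (-1.92).

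**Figure D5:**
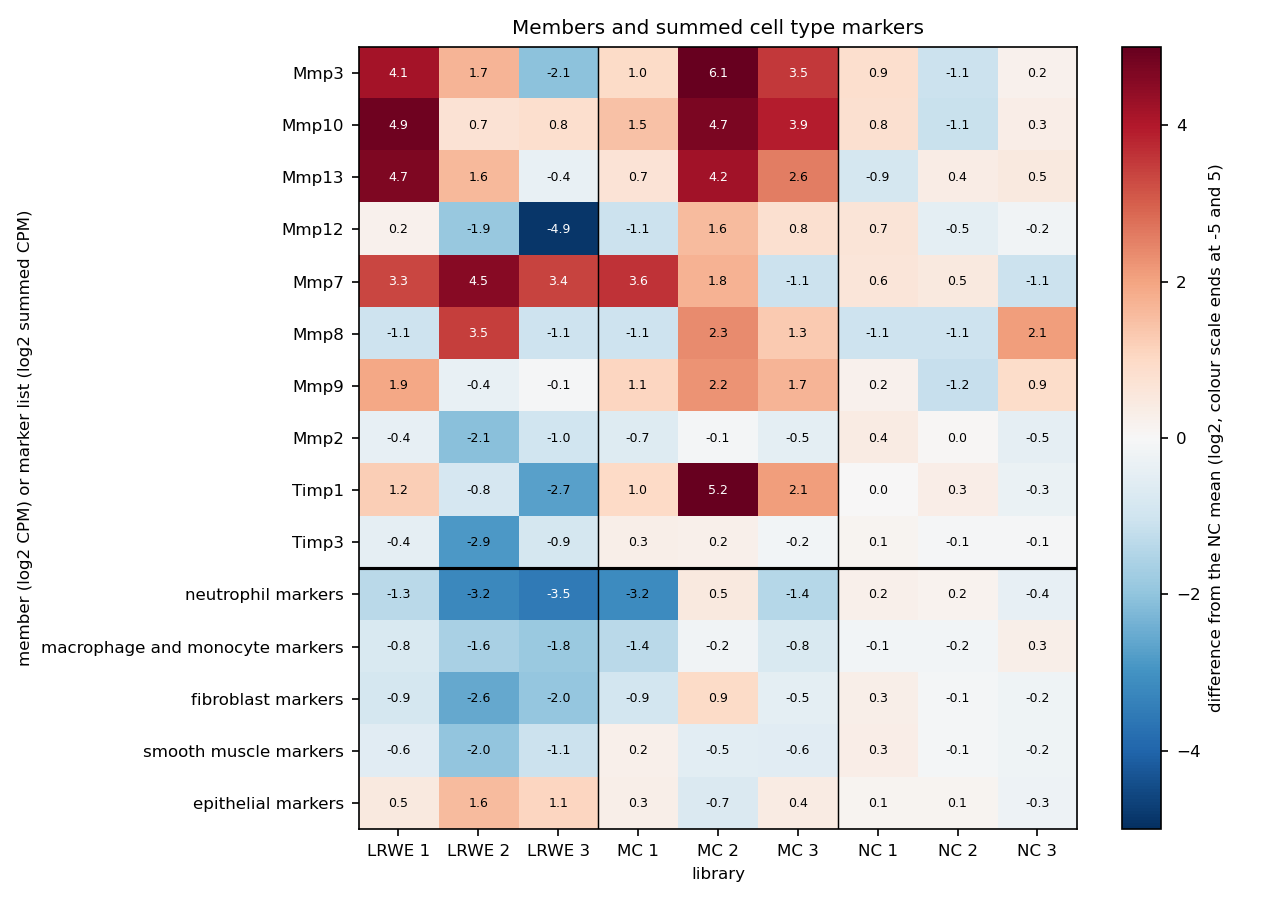
Difference from the NC mean of the 10 members (log2 CPM) and of 5 summed marker lists (log2 of the summed CPM) in each of the 9 libraries. MC 2 is highest for Mmp3, Timp1 and the fibroblast sum, LRWE 2 is lowest for Mmp2, Timp3, the fibroblast sum and the smooth muscle sum, and LRWE 2 is highest for the epithelial sum. The neutrophil sum is led by Ly6g, and the epithelial sum in LRWE by Car1. In MC the fibroblast marker with the highest mean is Grem1, and in MC 2 Postn, Dpt and Pi16 lie below every NC library.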

How the data were processed

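Poly(A) RNA from 9 mouse colons was sequenced. Per the submitters' processing notes, cutadapt 1.9, HISAT2 2.0.4, StringTie 1.3.4d and edgeR were used, and these notes name the human build hg38 beside mouse identifiers, so the build is not taken from them. Per the file headers, the deposited table held counts (whole numbers, treated here like StringTie's expected counts) and FPKM, which the authors scaled to transcript length and library size. The notes do not state how counts were made or whether strand was used.

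Counts were tested with edgeR 4.0.16 in R 4.3.3: filterByExpr, TMM factors, group means over all 9 libraries, and the quasi-likelihood test, with Benjamini-Hochberg adjustment over 21767 genes and calls at an adjusted p under 0.05. The SE of a log2 fold change was its size over the root of F, and intervals are at 95%. CPM uses TMM factors. Alternatives were DESeq2 1.42.0, limma 3.58.1 on log2(FPKM + 1) or log2(FPKM + 0.1), other scalings, no filter, a replicate block, each library left out, and limma-voom with sample quality weights, the last chosen after seeing the data. The scripts were tested on simulated data. Promoters and names came from RefSeq (GRCm38.p6), and shared 50-base words from GENCODE M21 transcripts.

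The members and lists were chosen with earlier results of these data known. Named genes are all members, up to 4 called genes of each list by smallest p, or its 2 most abundant where fewer than 2 passed, and the 3 genes nearest to each member among those with a mean of at least 1 CPM. Il1b, Syn1, Syn3, AV064505, S100a9, Mpo, Serpina3n, Car1, Timp2, Mmp14 and Grem1 were named after their values were seen.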

Additional observations from a re-analysis of the deposited data

How the results depend on the processing

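The counts of genes called moved with the fit. The main fit tested 21767 genes, and its counts are out of that number. How many genes each other fit tested is not given here, so no shares were taken for them. In MC against NC, 1386 genes were called, against 3740 by DESeq2, 2374 by limma on log2(FPKM + 1), 3781 with the 2 groups compared alone, 306 with a replicate block and 5205 by quality-weighted limma-voom, and between 281 (without NC 1) and 3318 (without LRWE 2) with a library left out. In LRWE against MC, 0 were called, against 1789 by DESeq2, 1 by limma on log2(FPKM + 0.1) and 2901 by limma-voom, and between 0 and 2436 (without LRWE 1) with a library left out. In LRWE against NC, 2179 were called, against 4420 by DESeq2, 600 with a replicate block and 6142 by limma-voom, and between 459 (without NC 2) and 2725 (without MC 2) with a library left out. The cause was not tested.

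Members called in MC against NC were 4 by DESeq2 and 2 with the 2 groups alone, and 0 to 1 with a library left out. In LRWE against MC they were 1 by DESeq2 and 1 by limma-voom, and 0 with any library left out. In LRWE against NC they were 3 by DESeq2, 3 by limma-voom and 1 (Mmp7) by limma on log2(FPKM + 1) and on log2(FPKM + 0.1), and 0 to 1 with a library left out. The totals over all genes of those limma fits on FPKM in LRWE against NC are not given here. The Mmp7 calls are thus not read as particular to the set. The direction of Mmp8 in LRWE against MC turned under limma on log2(FPKM + 0.1), to -0.0253, and limma-voom, to -1.84. That of Mmp13 turned under limma on log2(FPKM + 1), to -0.32, log2(FPKM + 0.1), to -0.63, the replicate block, to -0.17, and limma-voom, to -1.47. In LRWE against NC, limma-voom turned Mmp3 to -0.91 and Mmp8 to -0.68. Timp1, at 0.00, turned to -0.0359 without the filter, -0.16 and -0.68 by limma on log2(FPKM + 1) and log2(FPKM + 0.1), -0.40 with the replicate block and -2.30 by limma-voom.

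With a library left out, Mmp8 in MC against NC ranged from -0.34 to 6.21. In LRWE against MC, Mmp3 ranged from -4.01 to 0.0682, Mmp8 from -6.23 to 1.77, Mmp10 from -3.15 to 0.28 and Mmp13 from -2.19 to 1.36. In LRWE against NC, Mmp8 ranged from -5.46 to 6.86, Mmp9 from -0.46 to 1.26 and Timp1 from -1.60 to 0.52. Of 270 such values, 252 kept direction and side of the threshold, and of 266 under other settings, 237 did. No rescaling of the counts turned a member. Of 28 calls of named list genes, 28 held by DESeq2, 26 by limma-voom (all but Plaur and Lyz1 in LRWE against NC), 26 and 27 by limma on log2(FPKM + 1) and log2(FPKM + 0.1), 25 with the 2 groups alone, 22 without the filter, 20 with library totals and 7 with the replicate block, and between 5 and 25 held with a library left out. None turned. Library totals without TMM factors moved the median of all genes by 0.15 in MC against NC and by -0.20 in LRWE against MC.

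The replicate block was no pairing: same-numbered libraries of different groups had deviations correlated between -0.162 and 0.031, and no label ties the numbers. Besides the counts and directions above, it called no member in any comparison. With 3 mice a group, the SE of the log2 fold change in MC against NC was 2.38 for Mmp8, with 84 counts in all, 0.81 for Mmp9, with 707, and 1.64 for Mmp3, with 4879, so the width of the intervals did not follow the counts alone. The 0 counts of Mmp8 in 5 libraries allow up to 3 counts in each.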
